A study of Homo sapiens with 6 samples.

Results

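The microRNA and RNA interference machinery was described here by 10 genes. They included the Microprocessor genes DROSHA and DGCR8, the export receptor gene XPO5, and the Dicer complex genes DICER1 and TARBP2. The others were the Argonaute genes AGO1, AGO2, AGO3 and AGO4, and the GW182 gene TNRC6A. All 10 genes were taken by symbol from the GENCODE 29 annotation of the 58735 gene rows of the count table. All were among the 16561 genes that passed the filter on low counts. RNA was sequenced from H9 cells, an established line of human embryonic stem cells (hESCs) of wild-type genotype, after directed differentiation towards the third pharyngeal pouch endoderm (3PPE), the tissue from which the thymus and parathyroid glands arise. The cells had been grown on mouse embryonic fibroblast feeders, then treated with Activin A, WNT3A and the ROCK inhibitor Y-27632. Later they received retinoic acid, SB431542, BMP4 and, as the paper's methods put it, IWP2 or IWR1. At day 7 the NC group (3 libraries) received a negative control siRNA and the Si-HOXA3 group (3 libraries) an siRNA against HOXA3, both with Lipofectamine, and cells of both groups were harvested at day 9. Both groups therefore carried an siRNA, and cells without one were not analysed here.

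In the canonical pathway, a primary microRNA transcript is cut in the nucleus by the Microprocessor, in which DROSHA is the nuclease and DGCR8 the partner that binds the RNA. Exportin-5, the product of XPO5, carries the hairpin to the cytoplasm with the GTPase RAN, where Dicer cuts it to a duplex with the help of the double-stranded RNA binding proteins TRBP (from TARBP2) and PACT (from PRKRA). An Argonaute protein keeps one strand and recruits a GW182 protein such as TNRC6A, which brings deadenylases and decay factors to the target mRNA. A transfected siRNA skips the nuclear steps and enters at the Argonautes, of which AGO2 cuts a fully matched target. Mouse embryonic stem cells that lack DGCR8 or Dicer divide slowly and differentiate poorly, and loss of Dicer is lethal to the mouse embryo.

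Annotated microRNA genes lie inside the loci of DICER1 and DGCR8, and their mature sequences are shown because these genes make RNA that the machinery itself cuts. Hairpins near the start of the DGCR8 mRNA are a known substrate of the Microprocessor. MIR3173 lies in intron 3 of the longest coding transcript of DICER1, which has 29 exons, on the same strand. MIR3618 and MIR1306 lie in exon 2 of the 14 exons of the longest coding transcript of DGCR8, MIR3618 before the coding start and MIR1306 with all of its 85 bases in the coding sequence. The mature sequences are those of RefSeq on GRCh38.p14, written 5′ to 3′ with the seed (bases 2 to 8) in capitals, and the 5 seeds all differed:
hsa-miR-3173-5p (chr14:95137961-95137982, minus strand): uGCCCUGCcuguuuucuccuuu
hsa-miR-3173-3p (chr14:95137923-95137944, minus strand): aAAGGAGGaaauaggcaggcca
hsa-miR-3618 (chr22:20085797-20085818, plus strand): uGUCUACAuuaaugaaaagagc
hsa-miR-1306-5p (chr22:20086072-20086093, plus strand): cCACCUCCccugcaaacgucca
hsa-miR-1306-3p (chr22:20086112-20086129, plus strand): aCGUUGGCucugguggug

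The libraries held between 14117150 and 15282307 counts, with normalization factors between 0.986 and 1.01. HOXA3, the targeted gene, was read 248, 240 and 236 times in the NC libraries and 159, 199 and 220 times in those of Si-HOXA3. As CPM (counts scaled to the normalized library size) these were 16.6, 15.9 and 15.5 CPM for NC and 10.9, 13.2 and 15.5 CPM for Si-HOXA3, so that the groups overlapped, with replicate 3 of Si-HOXA3 just above the lowest NC library. HOXA3 had a log2 fold change of -0.27 (edgeR adjusted p = 0.828), which was -0.28 without Si-HOXA3 replicate 2 and -0.15 without Si-HOXA3 replicate 1. Of 10 markers of 3PPE, 4 had at least 10 counts in every library and the summed level of the list was 361 to 371 CPM in NC and 362 to 485 CPM for Si-HOXA3. FOXA2 and SOX17, defining endoderm genes, and PAX1, a pouch marker, were below 10 counts in every library. The summed level of 5 pluripotency markers was 1139 to 1181 CPM for NC and 1190 to 1326 CPM for Si-HOXA3 (NANOG below 10 counts throughout), that of 5 mesenchyme markers 2329 to 2494 CPM and 2421 to 2840 CPM, and that of 8 amnion and trophoblast markers 2153 to 2300 CPM and 2118 to 2296 CPM (CGB5 below 10 counts). Most of the pluripotency sum came from LIN28A, which alone held 1036 to 1063 CPM in NC and 1078 to 1196 CPM in Si-HOXA3. The 5 neural markers summed to 65.2 to 83.2 CPM for NC and 77.0 to 95.8 CPM for Si-HOXA3. Only 1 of them had at least 10 counts in every library, and PAX6, SOX1 and ELAVL3 were below 10 counts throughout. The 5 liver markers summed to 4.06 to 5.24 CPM and 3.38 to 5.19 CPM. Of these, 1 had at least 10 counts in every library, and HNF4A was below 10 counts throughout. Si-HOXA3 replicate 2 held the highest sum of its group for the markers of 3PPE (485 CPM), pluripotency (1326 CPM), liver, and amnion and trophoblast, and the lowest for mesenchyme (2421 CPM). In bulk RNA, fewer cells of a type cannot be told apart from less RNA per cell, and the part of these cell types in the values below was not tested.

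Si-HOXA3 replicate 2 stood apart from the other 5 libraries by transcript length. Its log2 deviation from the mean of the other libraries had a median of 0.27 over the shortest of 4 equal bins of genes by transcript length (up to 1888 bases) and of -0.23 over the longest bin (above 4906 bases). The Spearman correlation of the deviation with length over 16556 genes was -0.402, against 0.078 to 0.162 in the other 5 libraries, as a description across genes that share a library. Of the 10 members, 8 belonged to the longest bin, and TARBP2, with a transcript of 1867 bases, to the shortest. AGO2 deviated by -0.70 in this library, XPO5 by -0.51, TNRC6A by -0.51, DICER1 by -0.47, AGO3 by -0.40 and AGO1 by -0.36. AGO4 deviated by -0.31, DROSHA by -0.25, DGCR8 by -0.11 and TARBP2 by 0.44. Thus 9 of the 10 members had their lowest level in Si-HOXA3 replicate 2, as did 29.2% of all genes tested and 57.2% of the 4140 genes of the longest bin, and TARBP2 had its highest level there. The part of transcript length in the group differences was not tested. The fold changes of the members, and of most other named genes, are therefore given with and without this library.

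**Figure D1:**
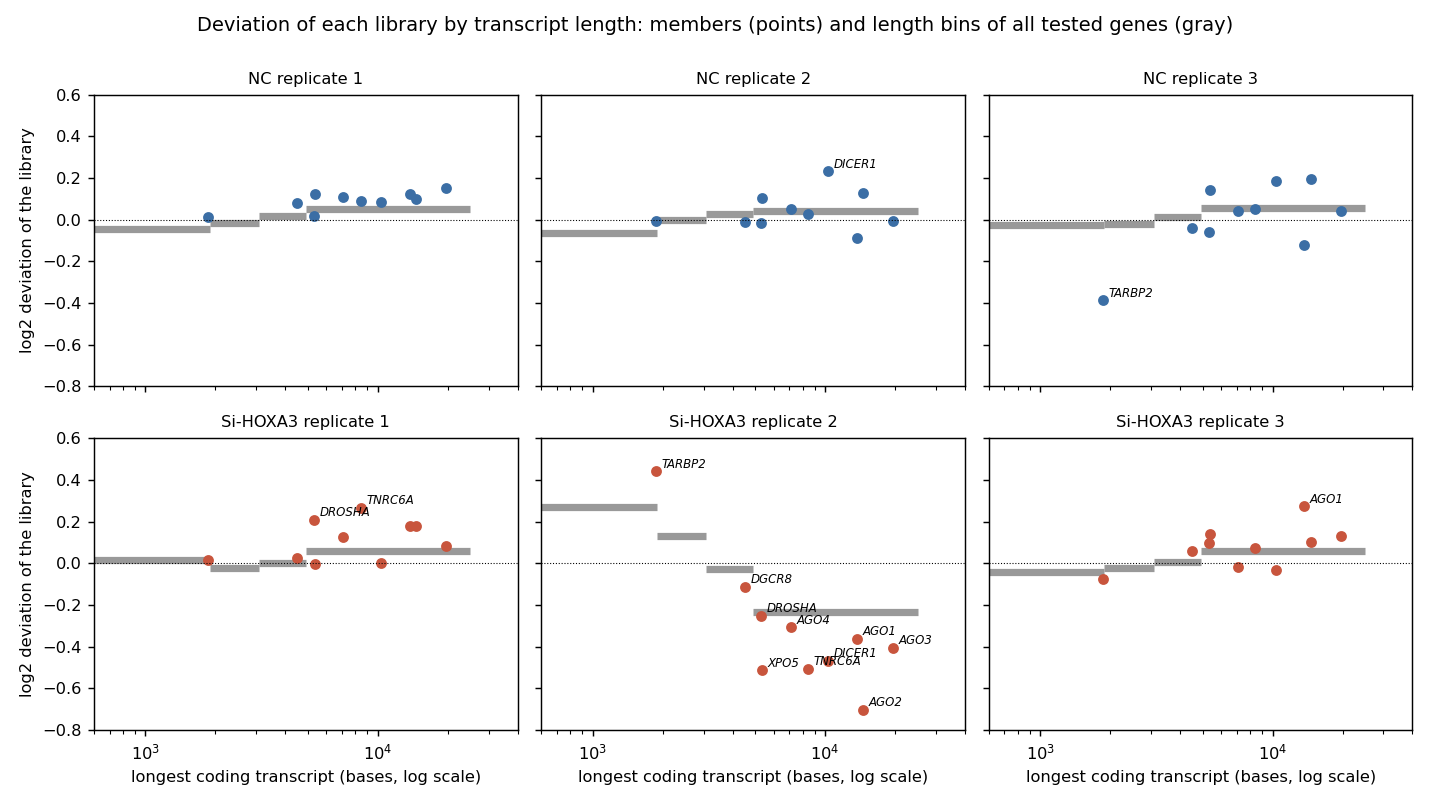
Log2 deviation of each library from the mean of the other 5 (y axis) against the length of the longest coding transcript (x axis, log scale), for the 10 members (points, blue for NC and red for Si-HOXA3) and as medians over 4 length bins of all tested genes (gray bars). All members except TARBP2 lie below 0 in Si-HOXA3 replicate 2, from -0.11 for DGCR8 to -0.70 for AGO2, and TARBP2 lies at 0.44.

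No difference of these 10 genes between NC and Si-HOXA3 passed the test. Their log2 fold changes ranged from -0.27 (DICER1) to 0.22 (TARBP2), and their 95% confidence intervals together spanned -0.56 to 0.54. No member had an adjusted p under 0.05 in edgeR's quasi-likelihood test, in DESeq2 or in limma-voom, and 0.00604% of all genes did in edgeR (1 gene of 16561, BOLA2B, which has a near-identical copy). One member, DICER1, had an unadjusted p under 0.05, against 6.36% of all genes tested, and it was also the one member whose groups did not overlap, against 13.3% of all genes. The log2 fold change (Si-HOXA3 over NC) was below 0 for 7 members and above 0 for 3, against 49.6% of all genes below 0, and its median was -0.08, against 0.0019 over all genes. Without Si-HOXA3 replicate 2, 4 members were below 0 and 6 above (49.5% of all genes below), and the median was 0.03. Then 2 members, DICER1 and AGO1, had an unadjusted p under 0.05, against 10.7% of all genes, and neither passed the adjustment. With each library's trend over length and GC content removed, an alternative chosen after seeing the data, 6 members were below 0, the median was -0.01, and 1 member, again DICER1, had an unadjusted p under 0.05, against 7.33% of all genes.

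**Figure D2:**
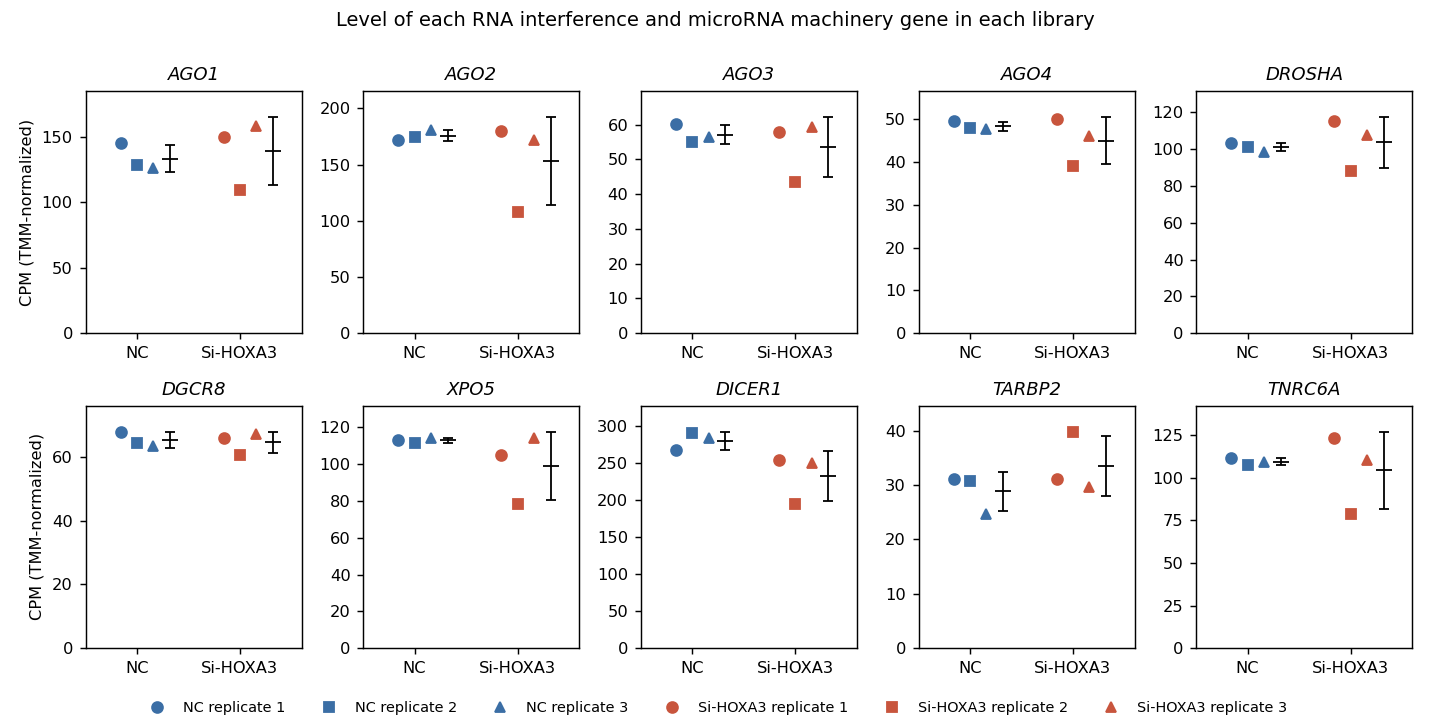
Level of each member (CPM, y axis from 0, a separate scale for each gene) in the 3 NC (blue) and 3 Si-HOXA3 (red) libraries, one symbol per replicate number; the black bar is the mean with its SD. DICER1 is the gene whose 3 Si-HOXA3 points (194 to 254 CPM) all lie below its NC points (267 to 290 CPM).

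**Figure D3:**
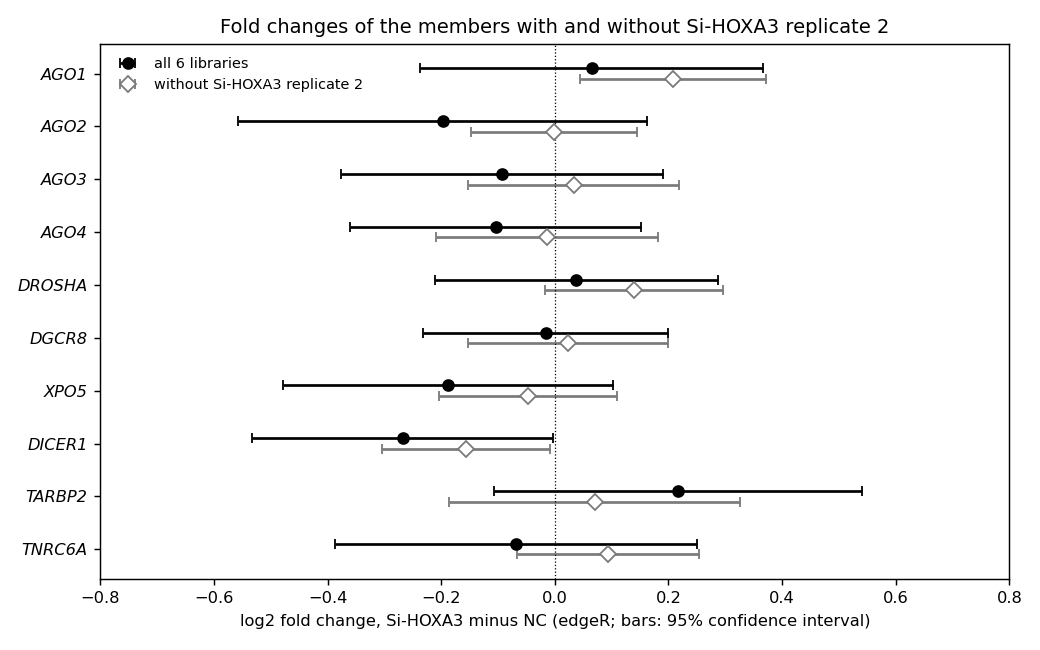
Log2 fold change of each member (x axis, Si-HOXA3 over NC) with its 95% confidence interval, from all 6 libraries (black circles) and without Si-HOXA3 replicate 2 (open diamonds). The interval lies below 0 in both fits for DICER1, and above 0 for AGO1 without that library.

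The replicates of NC were close for these genes. The coefficient of variation of CPM was 1.01% (XPO5) to 12.5% (TARBP2) in NC, with a median of 3.24% over the members and 10.1% over all genes tested. In Si-HOXA3 it was 5.20% (DGCR8) to 25.7% (AGO2), with a median of 16.4% over the members and 15.5% over all genes. The members had 377 to 4395 counts in a library. By CPM they lay at the percentiles 59.8 to 96.3 of all genes tested, so these medians compare genes of unlike abundance.

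DROSHA (chr5:31400497-31532196, minus strand), the nuclease of the Microprocessor, had 103, 101 and 98.5 CPM in NC replicates 1, 2 and 3 and 115, 88.0 and 108 CPM for Si-HOXA3. Replicates 1 and 3 of Si-HOXA3 were above all NC libraries and replicate 2 below them. The mean was 101 ± 2.24 CPM for NC and 104 ± 13.9 CPM for Si-HOXA3 (SD, n = 3), a log2 fold change of 0.04 (95% confidence interval -0.21 to 0.29, edgeR adjusted p = 0.958). Without Si-HOXA3 replicate 2 the log2 fold change was 0.14 (interval -0.02 to 0.30, adjusted p = 0.531).

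DGCR8 (chr22:20080232-20111877, plus strand), the RNA binding partner of DROSHA, stood at 68.0, 64.5 and 63.4 CPM in the NC libraries and at 65.9, 60.8 and 67.1 CPM in those of Si-HOXA3. It was the member with the smallest fold change, and its libraries overlapped. The log2 fold change was -0.02 (95% confidence interval -0.23 to 0.20, edgeR adjusted p = 0.979), and it was 0.02 (interval -0.15 to 0.20) without Si-HOXA3 replicate 2. As a percentage, the interval of DGCR8 ran from 14.8% below NC to 14.8% above it. TRMT2A, a tRNA methyltransferase gene that shares exon bases with DGCR8 on the opposite strand, had 23.1 CPM for NC and 26.2 CPM for Si-HOXA3 (log2 fold change 0.18, adjusted p = 0.843, and 0.14 without Si-HOXA3 replicate 2). MIR3618 and MIR1306, whose sequences are printed above, had no count in any of the 6 libraries. Both share exon bases with DGCR8 on the same strand, so a read there may have been counted for DGCR8 or for neither gene. The absence of counts therefore sets no limit on their level. How reads on shared exon bases and on either strand were assigned was not given in the sources used here.

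XPO5 (chr6:43522330-43576075, minus strand), which exports hairpins from the nucleus, stood at 113, 112 and 114 CPM in the NC libraries and at 105, 78.1 and 114 CPM in those of Si-HOXA3. Replicate 3 of Si-HOXA3 lay within rounding of the highest NC library, and replicate 2 was far below the rest. The mean was 113 ± 1.14 CPM for NC and 99.0 ± 18.7 CPM for Si-HOXA3 (SD, n = 3), a log2 fold change of -0.19 (95% confidence interval -0.48 to 0.10, edgeR adjusted p = 0.843). Without Si-HOXA3 replicate 2 it was -0.05 (interval -0.20 to 0.11, adjusted p = 0.870), a value over 1.5 times closer to 0. POLR1C, an RNA polymerase subunit gene that shares exon bases with XPO5 on the opposite strand, was read 211, 197 and 226 times in the NC libraries and 185, 199 and 203 times in those of Si-HOXA3 (log2 fold change -0.06, adjusted p = 0.944, and -0.05 without Si-HOXA3 replicate 2). RAN, the GTPase that loads exportin-5, had a log2 fold change of 0.04 (adjusted p = 0.960) with all libraries and of -0.16 without Si-HOXA3 replicate 2.

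DICER1 (chr14:95086228-95158010, minus strand), the nuclease that cuts hairpins to duplexes, was read 3972, 4395 and 4318 times in the NC libraries and 3698, 2916 and 3544 times in those of Si-HOXA3. These were 267, 290 and 283 CPM for NC and 254, 194 and 250 CPM for Si-HOXA3, every Si-HOXA3 library below every NC library. The gap between the groups was narrow, since Si-HOXA3 replicate 1 was close to NC replicate 1. The mean was 280 ± 12.2 CPM for NC and 233 ± 33.6 CPM for Si-HOXA3 (SD, n = 3), which is 16.9% lower. The log2 fold change was -0.27 (SE 0.120, 95% confidence interval -0.53 to -0.0029), with an unadjusted value of 0.0480 and an adjusted p of 0.777 in edgeR. It did not pass the adjusted threshold, and all 3 Si-HOXA3 libraries showed the direction. Without Si-HOXA3 replicate 2 the log2 fold change was -0.16 (interval -0.30 to -0.0080, adjusted p = 0.442), a value more than 1.5 times smaller, and with the length and GC correction it was -0.19 (adjusted p = 0.630).

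The unadjusted p of DICER1 was under 0.05 in 10 of 14 alternative fits and ranged from 0.0283 to 0.146 over them. It was 0.0653 with upper-quartile normalization, and 0.0649, 0.146 and 0.110 without NC replicate 1, 2 and 3. DICER1-AS1, a long noncoding RNA that shares exon bases with DICER1 on the opposite strand, was read 116, 82 and 119 times in the NC libraries and 122, 120 and 122 times in those of Si-HOXA3. Its Si-HOXA3 libraries were all above its NC libraries, by a log2 fold change of 0.25 that did not pass the test (adjusted p = 0.854). It was 0.28 without Si-HOXA3 replicate 2 and 0.09 without NC replicate 2. MIR3173, inside intron 3 of DICER1, had 0 to 2 counts in a library.

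TARBP2 (chr12:53500921-53506431, plus strand), whose product TRBP binds Dicer, was the member with the lowest counts. It was read 464, 465 and 377 times in the NC libraries and 453, 599 and 420 times in those of Si-HOXA3, or 31.2, 30.7 and 24.7 CPM and 31.1, 39.8 and 29.6 CPM. Si-HOXA3 replicate 2 was the highest library and NC replicate 3 the lowest, and the other 4 lay close together. The log2 fold change was 0.22 (95% confidence interval -0.11 to 0.54, edgeR adjusted p = 0.843), the highest among the members. It was 0.07 (interval -0.19 to 0.33, adjusted p = 0.883) without Si-HOXA3 replicate 2 and 0.12 with the length and GC correction. AC023509.4, a gene that shares exon bases with TARBP2 on the opposite strand, had 2 to 12 counts in a library. PRKRA, whose product PACT also binds Dicer, had 57.3 ± 0.542 CPM for NC and 59.4 ± 6.87 CPM for Si-HOXA3 (SD, n = 3), a log2 fold change of 0.05 that was -0.04 without Si-HOXA3 replicate 2. ADAR, which edits double-stranded RNA and can form a complex with Dicer, had a log2 fold change of -0.10 (adjusted p = 0.919) and of 0.06 without that library.

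AGO4, AGO1 and AGO3 lie in tandem on the plus strand of chromosome 1 (chr1:35808172-35857890, chr1:35869808-35930528 and chr1:35930718-36072500), and AGO2 lies at chr8:140520156-140635619 on the minus strand. At most 1.26% of the 50-base stretches of a member's transcripts (AGO3) also occurred in another gene and none occurred in another member. AGO1 stood at 145, 129 and 126 CPM in the NC libraries and at 150, 110 and 159 CPM in those of Si-HOXA3. Replicates 1 and 3 of Si-HOXA3 were above every NC library and replicate 2 below every one, and the log2 fold change was 0.06 (95% confidence interval -0.24 to 0.37, edgeR adjusted p = 0.942). Without Si-HOXA3 replicate 2 it was 0.21 (interval 0.04 to 0.37, adjusted p = 0.355), which does not pass the adjusted threshold and is over 1.5 times larger.

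AGO2, the Argonaute that can cut its target, stood at 172, 174 and 181 CPM in the NC libraries and at 180, 108 and 172 CPM in those of Si-HOXA3. Replicates 1 and 3 of Si-HOXA3 lay within the range of NC and replicate 2 far below it. The log2 fold change was -0.20 (95% confidence interval -0.56 to 0.16, edgeR adjusted p = 0.859), the widest interval among the members, and -0.0017 (interval -0.15 to 0.14) without that library. AGO3 stood at 60.1, 54.9 and 56.4 CPM in the NC libraries and at 57.8, 43.6 and 59.4 CPM in those of Si-HOXA3, with a log2 fold change of -0.09 (interval -0.38 to 0.19, adjusted p = 0.916). AGO4 stood at 49.5, 47.9 and 47.6 CPM in the NC libraries and at 50.0, 39.0 and 46.0 CPM in those of Si-HOXA3, with a log2 fold change of -0.10 (interval -0.36 to 0.15, adjusted p = 0.893). For both genes replicate 2 was the lowest library, and without it the log2 fold changes were 0.03 and -0.01.

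The balance between the 4 Argonautes was compared within each library, as shares of their summed counts per kb of exon, since such a share does not depend on the scaling between libraries. A share does not remove a library's trend over transcript length, and the longest coding transcripts ran from 7116 bases (AGO4) to 19687 bases (AGO3). AGO1 made up 33.8, 31.4 and 30.5% of the sum in NC and 34.0, 35.7 and 36.3% in Si-HOXA3. The groups did not overlap, although NC replicate 1 and Si-HOXA3 replicate 1 were nearly equal. The difference was 3.42 percentage points in an exact two-sided permutation test (p = 0.1, the smallest that 3 against 3 libraries allow, adjusted over the 4 shares p = 0.4), and it was 3.25 points without Si-HOXA3 replicate 2. AGO2 made up 37.0 ± 1.77% in NC and 33.7 ± 2.58% in Si-HOXA3, a difference of -3.25 points (exact permutation p = 0.2, adjusted p = 0.4) that was -1.79 without Si-HOXA3 replicate 2. AGO3 made up 8.98 ± 0.187% and 8.94 ± 0.350% (exact permutation p = 0.9), and AGO4 22.1 ± 0.189% and 22.0 ± 2.05% (exact permutation p = 0.8), both with an adjusted p of 0.9. A permutation over 3 and 3 libraries cannot reach 0.05, so no share could pass.

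**Figure D4:**
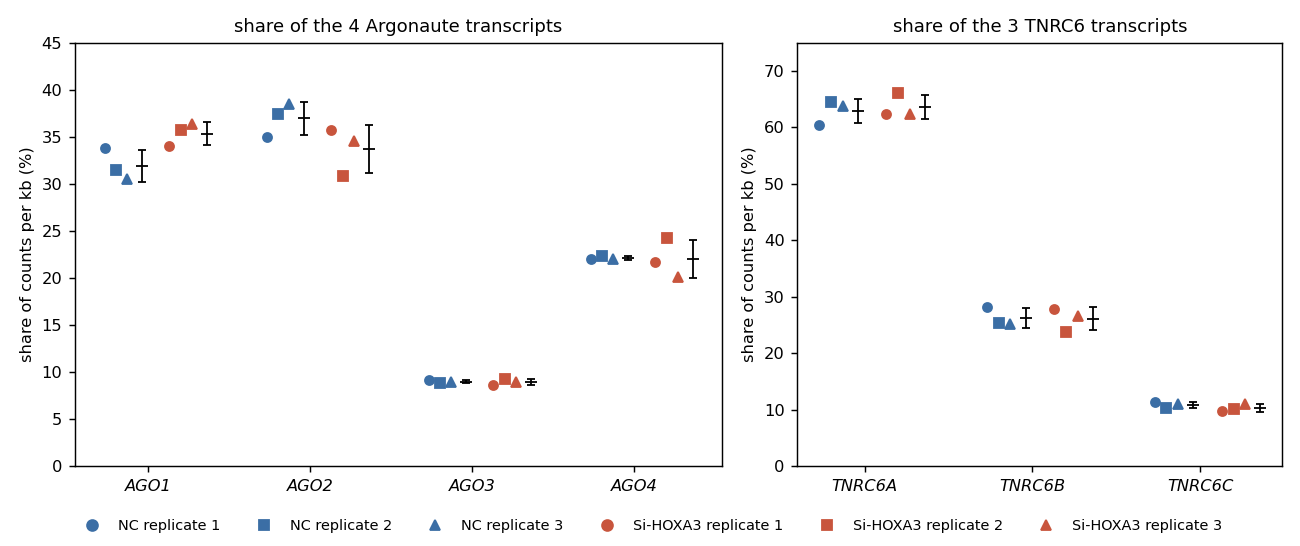
Share of each paralog in the summed counts per kb of its family (y axis, percent) in each library, for the Argonautes (left) and the TNRC6 genes (right); colours and symbols mark group and replicate, and black bars the mean with its SD. AGO1 is the paralog whose Si-HOXA3 points (34.0 to 36.3%) all lie above its NC points (30.5 to 33.8%).

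TNRC6A (chr16:24610209-24827632, plus strand), the GW182 protein gene that links Argonautes to deadenylation, stood at 112, 108 and 109 CPM in the NC libraries and at 123, 79.1 and 111 CPM in those of Si-HOXA3. Replicate 1 of Si-HOXA3 was the highest library, replicate 3 lay within NC, and replicate 2 was the lowest. The mean was 109 ± 1.94 CPM for NC and 104 ± 22.8 CPM for Si-HOXA3 (SD, n = 3), a log2 fold change of -0.07 (95% confidence interval -0.39 to 0.25, edgeR adjusted p = 0.942), which was 0.09 (interval -0.07 to 0.25) without Si-HOXA3 replicate 2. Its paralogs TNRC6B and TNRC6C had log2 fold changes of -0.07 (adjusted p = 0.955) and -0.16 (adjusted p = 0.898), and of 0.16 and 0.03 without that library. TNRC6A made up 62.9 ± 2.16% of the summed counts per kb of the 3 paralogs in NC and 63.6 ± 2.12% in Si-HOXA3, TNRC6B 26.2 ± 1.74% and 26.1 ± 2.05%, and TNRC6C 10.9 ± 0.553% and 10.3 ± 0.690%. The exact permutation p-values of these 3 differences were 0.7, 1 and 0.3, and 1, 1 and 0.9 when adjusted over the 3 shares. AC008731.1, on the opposite strand within TNRC6A, had 2 to 12 counts in a library.

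Levels of different members were compared per kb of merged exon length. In NC, DICER1 was the highest, with 22.8 ± 0.989 CPM per kb (SD, n = 3), at the percentile 87.8 of all genes tested. XPO5 and DROSHA followed with 13.2 ± 0.134 and 13.0 ± 0.288 CPM per kb, then AGO2 with 11.1 ± 0.311 and AGO1 with 9.60 ± 0.748. DGCR8, TNRC6A, TARBP2 and AGO4 had 8.93, 8.47, 7.06 and 6.65 CPM per kb (SDs up to 0.883), and AGO3 was the lowest with 2.70 ± 0.127, at the percentile 38.8. Between neighbours in this order, the values of all 6 libraries did not overlap for DICER1 over XPO5 (1.72-fold in NC) and for AGO4 over AGO3 (2.46-fold), and overlapped for the other 7 pairs. With the longest coding transcript as the length, DICER1, XPO5 and DROSHA remained the first 3 and AGO4 and AGO3 the last, while TARBP2 moved from the 8th place to the 4th, AGO2 from the 4th to the 7th and AGO1 from the 5th to the 8th.

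The wider pathway was read from lists of 58 genes by function, of which 55 were tested. Of these, 31 had a log2 fold change below 0 and 24 above, with a median of -0.04 (0.0074 without Si-HOXA3 replicate 2). None had an unadjusted p under 0.05 in edgeR (6.36% of all genes) or in DESeq2, and 2 did in limma-voom (13.3% of all genes). Without Si-HOXA3 replicate 2, 3 of them did in edgeR, a smaller share than the 10.7% of all genes, and none passed the adjustment with all libraries. The 3 genes, named after their values were seen, were RAN (log2 fold change -0.16 in that fit), the chaperone HSP90AA1 (-0.21) and the deadenylase CNOT7 (-0.21). With all libraries their log2 fold changes were 0.04, -0.07 and -0.13. The groups did not overlap for 3 of the 55 genes, DCP2, LIN28A and XRN2, a smaller share than the 13.3% of all genes.

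Among 6 cofactors of primary microRNA processing, 2 were below 0 and 4 above. HNRNPA1, which binds some primary microRNAs, was the most abundant per kb, with 1366 ± 30.2 CPM for NC and 1535 ± 205 CPM for Si-HOXA3 (SD, n = 3). Its log2 fold change was 0.17 (adjusted p = 0.850), and 0.07 without Si-HOXA3 replicate 2. Among 8 chaperones and cofactors of Argonaute loading, 4 were below 0 and 4 above. FKBP4, an HSP90 co-chaperone, had a log2 fold change of 0.13 (adjusted p = 0.854), and HSP90AB1, which helps to load duplexes into Argonautes, one of -0.03 (adjusted p = 0.973), which were 0.09 and -0.13 without Si-HOXA3 replicate 2. In that fit the median over these 8 genes moved from 0.0061 to -0.12.

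Among 10 GW182 paralogs and Argonaute partners, 6 were below 0 and 4 above. IPO8, an importin that binds Argonautes, had 109 ± 12.4 CPM for NC and 97.5 ± 11.7 CPM for Si-HOXA3 (SD, n = 3). Its log2 fold change was -0.16 (adjusted p = 0.851), and -0.07 without Si-HOXA3 replicate 2 and -0.06 without NC replicate 3. TRIM71, a let-7 target of stem cells that binds RNA and AGO2, had 379 ± 8.28 and 361 ± 50.4 CPM (log2 fold change -0.07, adjusted p = 0.928, and 0.03 without Si-HOXA3 replicate 2). Among 16 deadenylation and decay factors, 10 were below 0 and 6 above. The decapping enzyme gene DCP2 was higher in all 3 Si-HOXA3 libraries than in any NC library (219 ± 9.52 and 247 ± 27.7 CPM, log2 fold change 0.17, adjusted p = 0.829), and the poly(A) binding protein gene PABPC1 had a log2 fold change of 0.15 (adjusted p = 0.859). DCP2 was at 0.07 and PABPC1 at 0.08 on the log2 scale without Si-HOXA3 replicate 2.

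Among 10 genes of small RNA tailing and turnover, 6 were below 0 and 4 above. LIN28A, which blocks the maturation of let-7 and marks pluripotent cells, was the most abundant per kb, with 1049 ± 13.5 CPM for NC and 1149 ± 62.6 CPM for Si-HOXA3 (SD, n = 3). All 3 Si-HOXA3 libraries were above all NC libraries, and its log2 fold change of 0.13 did not pass the test (adjusted p = 0.856) and was 0.10 without Si-HOXA3 replicate 2. Its paralog LIN28B had 153 ± 9.13 and 143 ± 8.77 CPM (log2 fold change -0.10, adjusted p = 0.882, and -0.06 without Si-HOXA3 replicate 2). The exonuclease gene XRN2 was lower in all 3 Si-HOXA3 libraries than in any NC library (150 ± 4.63 and 137 ± 4.06 CPM, log2 fold change -0.12, adjusted p = 0.850, and -0.14 without Si-HOXA3 replicate 2). Of the PIWI genes, which act with small RNAs of the germline, PIWIL1 had no count in any library, PIWIL2 averaged 0.245 CPM and PIWIL3 0.132 CPM in NC, and PIWIL4 had 5.13 ± 0.895 CPM for NC and 4.46 ± 1.33 CPM for Si-HOXA3. PIWIL4 had a log2 fold change of -0.20 (adjusted p = 0.904), and of -0.03 without Si-HOXA3 replicate 2.

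**Figure D5:**
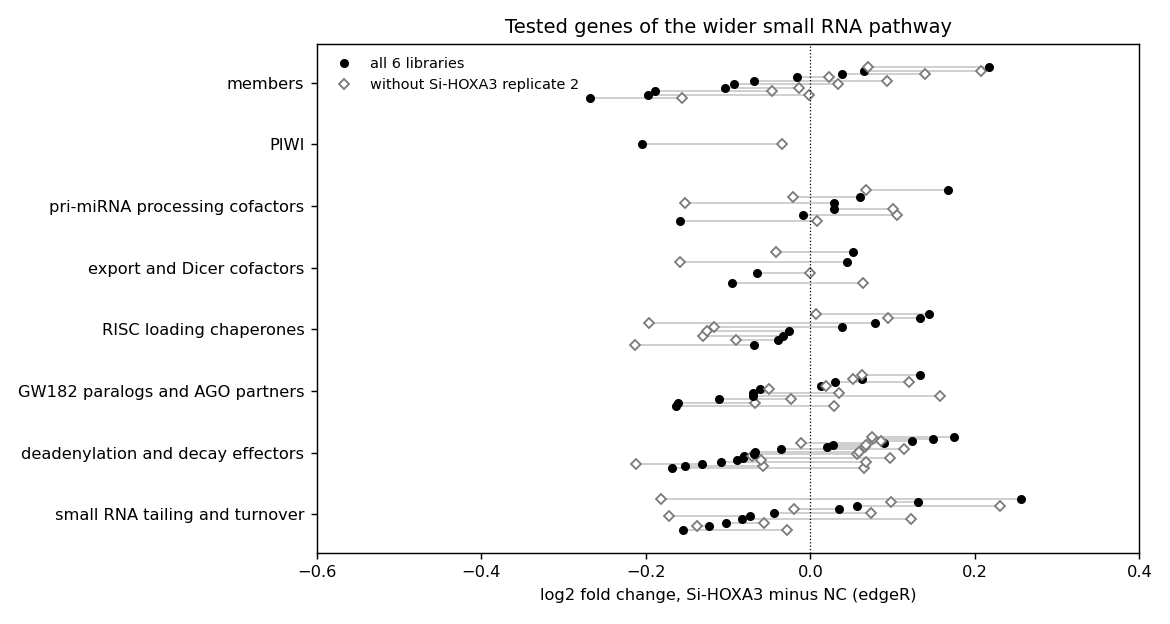
Log2 fold change (x axis, Si-HOXA3 over NC) of the 10 members and of the 55 tested genes of the wider pathway, by list; each gene is a black circle for all 6 libraries joined to an open diamond for the fit without Si-HOXA3 replicate 2. Most genes lie close to 0 in both fits, with the median of the pathway genes at -0.04 and 0.0074.

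The libraries were made from mRNA and do not measure mature microRNAs, which are too short. Of 1879 annotated microRNA genes, 1437 had no count in any library and 39 had at least 10 counts in a library, and between 0.00526 and 0.00769% of a library's counts fell on them. Of the 18 that were tested, 1 had an unadjusted p under 0.05 in edgeR (MIR3936, named after its value was seen), against 6.36% of all genes tested. The proteins of the 10 genes and the mature microRNAs they make were not analysed here.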

How the data were processed

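The series holds 6 RNA-seq libraries of cells harvested at day 9. The authors deposited raw counts of reads per gene as whole numbers, with no normalization. Libraries were made by LM-Seq according to the methods, and the labels add a SMARTER kit. The submitters' processing notes name the mouse builds GRCm38 and mm10, whereas all 58735 identifiers were human and matched GENCODE 29 on GRCh38. Aligner, counter and strand setting were not given in the sources used here. Samples were grouped by their labels. The paper gives 3 independent biological repeats in the legend of a figure that includes RNA-seq panels, and triplicates in its methods. Neither states that the 3 libraries of a group came from separate differentiations. The p-values therefore measure the spread between these libraries, which may be technical. No pair of libraries within a group was as close as sampling noise.

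Counts were analysed with R 4.3.3 and edgeR 4.0.16 (filterByExpr, TMM normalization, robust quasi-likelihood fit, two-sided test, Benjamini-Hochberg adjustment over 16561 genes). CPM values were computed from the deposited counts. A count of 3 was worth 0.197 to 0.211 CPM. Genes and lists were chosen with earlier results of these data known. Named besides the members were HOXA3, the gene with the lowest p and that with the highest CPM per kb of each list, the PIWI, LIN28 and TNRC6 genes, close partners, and genes overlapping a member with 10 or more counts or holding a microRNA. Alternatives were DESeq2 1.42.0, other normalizations and filters, a replicate block, limma 3.58.1 (voom with quality weights), each library left out, and, added after seeing the data, a length and GC correction (mgcv 1.9.3). Scripts were tested on simulated counts.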

Additional observations from a re-analysis of the deposited data

How the results depend on the processing

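No member passed an adjusted p of 0.05 in any of the 14 alternatives. Over these, 129 of the 140 log2 fold changes of members kept their direction and 11 changed sign, as did 17 of 280 among 20 other named genes, the largest in size being 0.16 for RAN and TNRC6B. Depth limits the overlapping genes with few counts, such as MIR3173 and AC023509.4, rather than the members, which had 377 or more counts in every library.

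Genes with an adjusted p under 0.05 numbered 1, and 38 with DESeq2, 100 with no filter, 4 with the replicate block, 47 with limma-voom and 1 to 24 when a library was left out (24 without Si-HOXA3 replicate 2). Genes with an unadjusted p under 0.05 numbered 1053, and 1862 with no filter, 2206 with limma-voom and 643 to 1828 when a library was left out (643 and 671 without NC replicates 2 and 3, 1828 without Si-HOXA3 replicate 2). Members with an unadjusted p under 0.05 numbered 0 with upper-quartile normalization, against 1107 of all genes tested, and 0 to 2 when a library was left out. The number was 0 whichever NC library was dropped, against 987, 643 and 671 of all genes for replicates 1, 2 and 3. Dropping replicate 1, 2 or 3 of Si-HOXA3 gave 1, 2 and 2 members, against 1027, 1828 and 1362 of all genes. The number of genes called thus also changed with the library dropped. Pathway genes with an unadjusted p under 0.05 numbered 2 with limma-voom, 1 with the length and GC correction and 0 to 3 when a library was left out. The median log2 fold change of the members was 0.0195 with limma-voom and -0.17 to 0.0278 when a library was left out. The cause was not tested.

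With limma-voom the log2 fold change was 0.0198 for AGO3, 0.0191 for DGCR8, 0.0791 for TNRC6A, 0.0392 for ADAR, -0.0388 for PRKRA, -0.14 for RAN, 0.16 for TNRC6B, 0.0261 for TNRC6C and 0.0306 for TRIM71. It was 0.0046 for DGCR8 with upper-quartile normalization. With the length and GC correction it was 0.0306 for DGCR8, -0.0121 for PRKRA and 0.0010 for TRIM71. With a library left out it ranged from -0.0365 to 0.21 for AGO1, -0.17 to 0.0329 for AGO3, -0.0430 to 0.0227 for DGCR8, -0.0430 to 0.14 for DROSHA, -0.21 to 0.0935 for TNRC6A, -0.20 to 0.0634 for ADAR, -0.13 to 0.0298 for HSP90AB1, -0.0417 to 0.13 for PRKRA, -0.16 to 0.14 for RAN, -0.27 to 0.16 for TNRC6B, -0.28 to 0.0288 for TNRC6C and -0.16 to 0.0345 for TRIM71. The difference in share, in percentage points, then ranged from -0.22 to 0.13 for AGO3, -1.24 to 0.79 for AGO4, -0.53 to 1.48 for TNRC6A and -0.995 to 1.01 for TNRC6B.

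Equal replicate numbers were not taken as pairs in the main fit. The correlation of deviations between same-numbered libraries was 0.142, 0.104 and -0.0590, and between libraries of unlike number it ranged from -0.173 to 0.0889. With the replicate block no member passed the adjusted threshold, and the median of the members was -0.10. In that edgeR fit 1 member had an unadjusted p under 0.05, as did 1109 of all 16561 genes tested.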

Other observations

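Host genes of microRNAs, long noncoding RNAs named after the microRNA they carry, were also read from the table. Of 62 such genes in the table, 15 were tested. The log2 fold change was below 0 for 5 and above 0 for 10, with a median of 0.15, against 49.6% of all genes below 0. None had an unadjusted p under 0.05 in edgeR's quasi-likelihood test, with all libraries (6.36% of all genes) or without Si-HOXA3 replicate 2 (10.7%). The groups did not overlap for 3 of the 15, against 13.3% of all genes. Of these, MIR503HG and MIR193BHG were higher and MIR4435-2HG was lower in all Si-HOXA3 libraries. MIR205HG, the host of a microRNA of epithelia, was read 177, 130 and 113 times in the NC libraries and 217, 162 and 123 times in those of Si-HOXA3, with overlapping groups. MIR17HG, which carries the miR-17 to miR-92a cluster, was read 130, 128 and 158 times in the NC libraries and 160, 226 and 130 times in those of Si-HOXA3, with the highest value in Si-HOXA3 replicate 2. Its log2 fold change was 0.35 (adjusted p = 0.828) with all libraries and 0.13 without that library. MIR503HG was read 50, 42 and 51 times in the NC libraries and 63, 72 and 54 times in those of Si-HOXA3, so that every Si-HOXA3 library was above every NC library, with a log2 fold change of 0.45 that did not pass the test (adjusted p = 0.791) and was 0.36 without Si-HOXA3 replicate 2. MIR22HG had 15.2 CPM in both groups, a log2 fold change of -0.0030 that was -0.07 without Si-HOXA3 replicate 2. These genes were chosen after their values were seen.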
